A study of Mus musculus with 32 samples.

Results

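The 8 libraries harvested on day 1 after the end of 4-hydroxytamoxifen (4-OHT) exposure were compared by treatment, 4 from 4-OHT-treated and 4 from untreated bone marrow-derived macrophages (BMDMs). They were selected by time point and treatment from the 32 libraries of the time course, with genotype as a covariate, and no measured value entered the selection. BMDMs are macrophages that grow and mature in culture from mouse bone marrow under M-CSF, here supplied by L929 cell supernatant. Of each treatment, 2 libraries were of the genotype Trex1 FL/FL R26 CreERT2, with loxP sites around both Trex1 alleles, and 2 of the genotype Trex1 WT/FL R26 CreERT2, with 1 allele left wild type. Treated cells received 2 µg/ml (Z)-4-OHT for 22 h. No vehicle is named for the untreated cells. Since all 8 cultures carried the CreERT2 allele, a response to the drug and a response to active Cre cannot be told apart in either genotype. The comparison asks what 4-OHT exposure changed in the cells at the earliest harvest, in both genotypes alike and separately in each.

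4-OHT is the active form of tamoxifen. It binds the mutated estrogen receptor domain of CreERT2 and lets the fused recombinase enter the nucleus. There the recombinase cuts at loxP sites and removes the DNA between them. Outside this system, 4-OHT binds estrogen receptors and sterol-handling enzymes, and compounds of this kind are known to disturb the trafficking and synthesis of cholesterol. Cells answer a low sterol level in the endoplasmic reticulum through SREBP2, which raises the enzymes of cholesterol synthesis, and a surplus of oxidised sterols through the LXR receptors, which raise the cholesterol exporters Abca1 and Abcg1. Trex1 encodes a 3′ to 5′ DNA exonuclease that removes DNA from the cytosol and so keeps the DNA sensor cGAS and the type I interferon (IFN) genes silent.

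Total estimated counts ranged from 37068763 to 56010277 per day 1 library. They were 54237100 and 52073991 in untreated and 42827841 and 44606103 in treated Trex1 FL/FL BMDMs. In Trex1 WT/FL BMDMs they were 38895602 and 37068763 untreated and 53538284 and 56010277 treated. Treated libraries thus held fewer counts than untreated ones in Trex1 FL/FL and more in Trex1 WT/FL. Depth therefore varied along with any difference in response between the genotypes, and its share in such differences was not tested. Macrophage markers were abundant in all 8 libraries, with a summed level of 18950 to 21650 CPM (counts scaled to a common library total) over 16 genes and none at 0. The lists for other cells were at most 35.4 CPM in sum for neutrophils and granulocyte progenitors, 12.4 CPM for dendritic cells and 2.65 CPM for lymphocytes, with 8 to 11 of 14 lymphocyte genes at 0. The labels name no animal, culture or batch for the libraries, so p-values measure only the spread between them, which may be technical. The second untreated Trex1 FL/FL library stood apart from the other 7. It was separated by the first principal component, which held 24.9% of the variance. Across genes, each of the other 7 libraries had a median correlation of 0.987 to 0.989 with the rest, with single values up to 0.991. The correlations of the second untreated Trex1 FL/FL library with the others were 0.980 to 0.983. In the decile of tested genes with the highest GC content its median log2 level lay 0.241 below the mean of the 8 libraries, whereas the other 7 lay 0.0239 to 0.0623 above it. List medians whose direction or size rested on this library are given without it as well. Untreated BMDMs of the 2 genotypes differed at an adjusted p below 0.05 in 0 of 14200 genes (edgeR), and 560 had an unadjusted p below 0.05.

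The cholesterol genes described further on turn on sterol control, so the RefSeq promoter windows of the 3 members with the lowest p are shown here. Each holds 250 bases before and 50 bases after the annotated start, from GRCm38.p6, written 5′ to 3′ on the strand of the gene. Hmgcs1 lies at chr13:119690101-119690400 (plus strand), Cyp51 at chr5:4104648-4104947 (minus strand) and Msmo1 at chr8:64733529-64733828 (minus strand). Capitals mark matches on either strand to CCAAT, the box bound by NF-Y, and to TCACNCCAC, a form of the sterol regulatory element bound by SREBP. The motifs did not overlap in the windows shown.
Hmgcs1: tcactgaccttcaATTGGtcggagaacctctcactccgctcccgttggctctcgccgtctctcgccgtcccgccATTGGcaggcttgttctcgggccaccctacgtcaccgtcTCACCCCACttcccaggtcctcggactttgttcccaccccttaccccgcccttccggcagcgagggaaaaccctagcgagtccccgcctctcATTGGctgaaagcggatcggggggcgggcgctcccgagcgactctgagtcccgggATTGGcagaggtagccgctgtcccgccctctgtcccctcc
Cyp51: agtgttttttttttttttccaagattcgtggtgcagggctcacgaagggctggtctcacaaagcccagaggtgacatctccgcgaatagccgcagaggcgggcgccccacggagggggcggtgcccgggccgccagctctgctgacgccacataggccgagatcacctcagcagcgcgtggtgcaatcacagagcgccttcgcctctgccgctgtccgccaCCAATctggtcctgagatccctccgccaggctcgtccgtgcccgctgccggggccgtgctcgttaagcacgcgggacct
Msmo1: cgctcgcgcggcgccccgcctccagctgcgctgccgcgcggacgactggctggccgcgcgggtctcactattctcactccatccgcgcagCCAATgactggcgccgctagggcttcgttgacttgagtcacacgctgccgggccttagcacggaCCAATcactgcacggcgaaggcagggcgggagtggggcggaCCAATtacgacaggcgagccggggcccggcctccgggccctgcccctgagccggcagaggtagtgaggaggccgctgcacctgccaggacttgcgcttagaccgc
The form TCACNCCAC was matched once, in Hmgcs1, 137 bases before the start, and was not in the Cyp51 and Msmo1 windows. Other forms of the sterol element were not searched for. A CCAAT match was present in all 3 windows. Of the 24 tested genes of the list, 17 had a RefSeq promoter window. Of these, 16 had a CCAAT match in at least 1 window and 1 had a TCACNCCAC match. Of all 32851 promoter windows, 37.4% held CCAAT and 1.24% held TCACNCCAC. These matches describe the letters only.

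Trex1 itself was the gene with the clearest change. In Trex1 FL/FL BMDMs its level was 35.1 and 34.7 CPM in the untreated libraries, and 0 counts were found in both treated ones. In Trex1 WT/FL BMDMs it was 35.5 and 31.8 CPM without and 16.6 and 13.5 CPM with 4-OHT. The groups did not overlap in either genotype. Against a floor of 3 counts per library, Trex1 was at least 508-fold lower in treated than in untreated Trex1 FL/FL BMDMs (edgeR quasi-likelihood, Benjamini-Hochberg adjusted p = 3.70e-08). In Trex1 WT/FL BMDMs, treated cells kept 44.8% of the untreated level (log2 fold change -1.16 ± 0.11 (SE), edgeR adjusted p = 0.0232), and no other gene was called there (0.00704% of 14200), with 315 at an unadjusted p below 0.05 (2.22%). This call was lost in a fit without robust estimation (adjusted p = 0.168), and without either untreated library or the second treated library of this genotype (adjusted p = 0.507, 0.0637 and 0.133). Trex1 was the only gene whose response differed between the genotypes at an adjusted p below 0.05, 1 of 14200 genes (0.00704%), with 260 at an unadjusted p below 0.05 (1.83%), and DESeq2 called 8. For Trex1 this difference was set in advance by the number of alleles with loxP sites. Every 31-base word of the annotated Trex1 transcripts also occurs in transcripts of Atrip, a gene for a partner of the checkpoint kinase ATR that spans Trex1 on the same strand, so the split of reads between them is uncertain. Atrip was at 15.9 and 15.7 CPM in untreated and 15.1 and 16.0 CPM in treated Trex1 FL/FL BMDMs, and at 16.5 and 15.6 against 14.6 and 14.6 CPM in Trex1 WT/FL BMDMs. Its groups overlapped in Trex1 FL/FL and its change did not pass the test (log2 fold change -0.080 ± 0.062 (SE), unadjusted p = 0.219, adjusted p = 0.977).

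Shisa5, which encodes a p53-inducible protein of the endoplasmic reticulum, was the other gene that fell in Trex1 FL/FL BMDMs. It was measured at 261 and 214 CPM in untreated and 105 and 111 CPM in treated Trex1 FL/FL BMDMs. The corresponding values in Trex1 WT/FL BMDMs were 258 and 255 CPM untreated and 189.7 and 183 CPM treated. Treated cells were below untreated cells in both genotypes, at 45.7% of the untreated mean in Trex1 FL/FL BMDMs and 72.5% in Trex1 WT/FL. The log2 fold change of -1.13 in Trex1 FL/FL passed the test (adjusted p = 0.000428), and with Trex1 it made up the 2 of 14200 genes called there (0.0141%), with 464 at an unadjusted p below 0.05 (3.27%). Without the first treated Trex1 FL/FL library the adjusted p was 0.0506. The change of -0.46 in Trex1 WT/FL did not pass (unadjusted p = 0.000205, adjusted p = 0.938), nor did the difference between the genotypes of -0.67 (unadjusted p = 0.000181, adjusted p = 0.834). DESeq2 called both of them (adjusted p = 0.00163 and 0.00234), and so did the edgeR fit without the library that stood apart (adjusted p = 0.000545 and 0.000193).

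Shisa5 is the neighbour of Trex1. In GENCODE vM39 (GRCm39) it lies at chr9:108867633-108887029 on the plus strand and Trex1 at chr9:108887001-108888802 on the minus strand, so that their 3′ ends overlap by 29 bases. Whether the counting used the strand of the reads is not given in the sources used here. How reads in the overlap were assigned is therefore not known. Of 3921 words of 31 bases in Shisa5 transcripts, 0 occurred in transcripts of other genes on either strand. Within 250 kb of Trex1, 12 genes were tested on day 1, and none of the 10 besides Trex1 and Shisa5 was called in either genotype. These included Pfkfb4, a regulator of glycolysis 24.2 kb from Trex1 (log2 fold change -0.020 in Trex1 FL/FL BMDMs and -0.14 in Trex1 WT/FL), and Ccdc51, 14.4 kb away on the other side (0.22 and 0.039). On days 2, 3 and 4, measured in other libraries, Shisa5 fell after 4-OHT, at log2 fold changes of -3.80, -5.09 and -4.59 in Trex1 FL/FL BMDMs and -0.84, -0.81 and -0.56 in Trex1 WT/FL, all 6 at an adjusted p below 0.05. Of the 10 other genes, 6 were called on at least 1 of these days, all of them in Trex1 FL/FL BMDMs and lower. In Trex1 WT/FL BMDMs 0 were called. Over all 15257 genes, 16.4%, 23.5% and 29.6% were called in either direction in Trex1 FL/FL on days 2, 3 and 4. On day 4, 15.9% were called lower there. The shares in either direction in Trex1 WT/FL were 0.0983%, 0.537% and 0.472%. Each of these shares is for a single day, so none matches the count of 6, which joins several days. In Trex1 FL/FL BMDMs, Pfkfb4 fell to -0.49, -0.83 and -0.80 on days 2, 3 and 4. Nckipsd, which encodes an SH3 adaptor protein, fell to -0.39, -0.53 and -0.70, and Atrip to -0.40, -0.42 and -0.36.

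**Figure D1:**
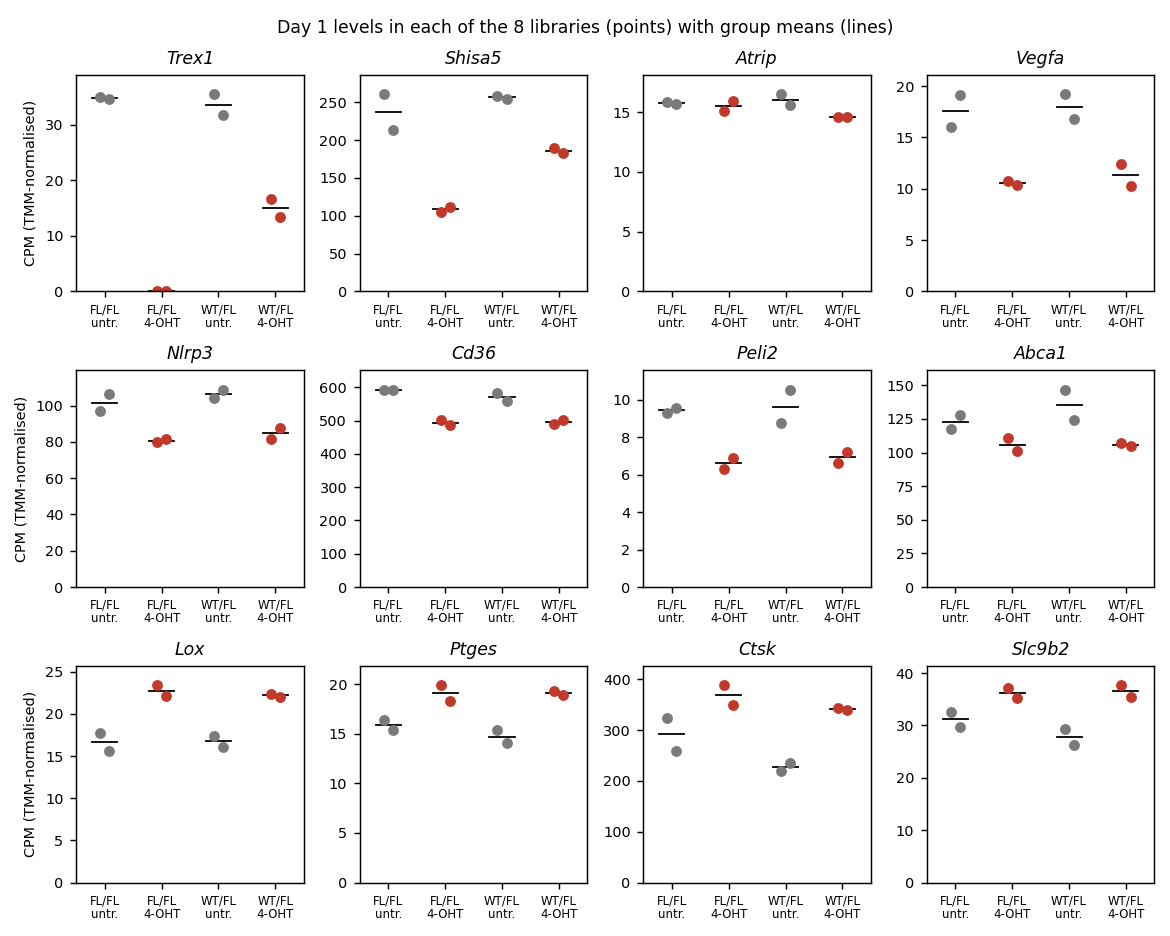
Levels of 12 genes on day 1 in TMM-normalised CPM (vertical axes from 0), by genotype and treatment. Each point is a library (grey, untreated; red, 4-OHT) and each line the mean of 2 libraries. Trex1 was at 0 in treated Trex1 FL/FL BMDMs, Vegfa, Nlrp3, Cd36, Peli2 and Abca1 were lower in all 4 treated libraries and Lox, Ptges, Ctsk and Slc9b2 were higher in all 4.

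With genotype as a covariate, 0 of 14200 genes (0%) passed an adjusted p below 0.05 for 4-OHT against untreated in edgeR's quasi-likelihood test, and 514 (3.62%) had an unadjusted p below 0.05, of which 268 were higher (1.89%) and 246 lower (1.73%) in treated cells. Trex1 was not among them in this fit, which assumes the same change in both genotypes (unadjusted p = 0.0633). DESeq2 called 24 genes with the same model (0.169%), 12 higher and 12 lower (0.0845% each), of which 22 were among the 100 genes of lowest p in edgeR. When each of the 4 groups was given its own mean and the effects of the genotypes were averaged, edgeR called 3 genes, Trex1, Shisa5 and Vegfa. Across the middle 90% of tested genes with a mean log2 CPM above 3, the log2 fold change lay between -0.104 and 0.145, with a median of -0.000682. The genes named next are the 5 lower and 5 higher ones with the lowest p. None of them passed the edgeR test, while DESeq2 called all 10. In edgeR without the library that stood apart, 8 genes were called, among them Vegfa, Nlrp3, Cd36, Lox and Zfp781b.

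Vegfa, which encodes the growth factor that drives the formation of blood vessels, had the lowest p of all genes. It was at 16.0 and 19.1 CPM in untreated and 10.8 and 10.3 CPM in treated Trex1 FL/FL BMDMs, and at 19.2 and 16.8 CPM untreated and 12.4 and 10.3 CPM treated in Trex1 WT/FL BMDMs. All 4 treated libraries lay below all 4 untreated ones, as they did for 206 of 14200 genes (1.45%). The log2 fold change was -0.70 ± 0.087 (SE), with an unadjusted p = 4.36e-06, adjusted p = 0.0619 (edgeR), 2.40e-08 after adjustment in DESeq2. It was -0.73 in Trex1 FL/FL BMDMs and -0.66 in Trex1 WT/FL, and the difference did not pass the test (edgeR interaction, unadjusted p = 0.705, adjusted p = 1.00).

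Nlrp3, the sensor that forms the best known inflammasome of macrophages, was at 96.9 and 106 CPM in untreated against 80.0 and 81.4 CPM in treated Trex1 FL/FL BMDMs. Its levels in Trex1 WT/FL BMDMs were 104 and 109 CPM and 81.6 and 87.8 CPM. Treated libraries lay below untreated ones throughout, with a log2 fold change of -0.33 ± 0.044 (SE) (unadjusted p = 9.22e-06, adjusted p = 0.0655, edgeR). Cd36, a scavenger receptor for oxidised lipoproteins and fatty acids, was an abundant gene with a narrow spread. Its levels were 592 and 592 CPM without and 500.1 and 488 CPM with 4-OHT in Trex1 FL/FL, and 583 and 560.1 against 489 and 501 CPM in Trex1 WT/FL. Again no treated library reached an untreated one (log2 fold change -0.23 ± 0.035 (SE), unadjusted p = 2.89e-05, adjusted p = 0.103, edgeR).

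Peli2, an E3 ubiquitin ligase of Toll-like receptor signalling, was at 9.31 and 9.57 CPM in untreated and 6.31 and 6.90 CPM in treated Trex1 FL/FL BMDMs. In Trex1 WT/FL BMDMs, 8.74 and 10.5 CPM were measured without and 6.63 and 7.21 CPM with the drug. Its groups did not overlap, at a log2 fold change of -0.50 ± 0.090 (SE) (unadjusted p = 0.000157, adjusted p = 0.428, edgeR). The fifth gene, Zfp781b, was near the detection limit with 2.08 and 0.976 CPM in untreated against 0.0929 and 0.496 CPM in treated Trex1 FL/FL BMDMs. In Trex1 WT/FL BMDMs it was at 2.11 and 1.38 CPM untreated and 0.357 and 0.356 CPM treated. Since 97.8% of its 31-base words occur in transcripts of other genes, its log2 fold change of -2.32 is uncertain.

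Among the genes that were higher after 4-OHT, Lox had the lowest p. It encodes lysyl oxidase, which cross-links collagen and elastin. Its levels were 17.8 and 15.6 CPM in untreated and 23.4 and 22.1 CPM in treated Trex1 FL/FL BMDMs, and 17.4 and 16.1 CPM untreated and 22.4 and 22.0 CPM treated in Trex1 WT/FL BMDMs. All 4 treated libraries lay above all untreated ones, which was so for 213 of 14200 genes (1.5%). The log2 fold change was 0.43 ± 0.063 (SE) (unadjusted p = 2.47e-05, adjusted p = 0.103, edgeR). Ptges, the terminal synthase for prostaglandin E2, was at 16.4 and 15.3 CPM without and 19.9 and 18.3 CPM with 4-OHT in Trex1 FL/FL. Its values in Trex1 WT/FL were 15.3 and 14.1 CPM untreated and 19.3 and 18.9 CPM treated, and the groups did not overlap (log2 fold change 0.32 ± 0.064 (SE), unadjusted p = 0.000342, adjusted p = 0.530, edgeR).

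The other 3 genes of this direction are known from osteoclasts, the bone-resorbing relatives of macrophages. Ctsk encodes cathepsin K, the protease that degrades bone collagen. It was measured at 324 and 259 CPM in untreated and 388 and 349 CPM in treated Trex1 FL/FL BMDMs, and at 220.0 and 236 CPM untreated and 344 and 339 CPM treated in Trex1 WT/FL BMDMs, with a log2 fold change of 0.46 ± 0.082 (SE) (unadjusted p = 0.000432, adjusted p = 0.530, edgeR). Slc9b2, a sodium/proton exchanger, was at 32.6 and 29.7 CPM untreated and 37.2 and 35.3 CPM treated in Trex1 FL/FL and at 29.3 and 26.3 CPM untreated and 37.7 and 35.4 CPM treated in Trex1 WT/FL (log2 fold change 0.30 ± 0.063 (SE)). Eeig1, an estrogen-induced gene, was at 136 and 111 CPM untreated and 154 and 142 CPM treated in Trex1 FL/FL and at 115 and 115 CPM untreated and 143 and 141 CPM treated in Trex1 WT/FL (log2 fold change 0.28 ± 0.057 (SE)). For all 3, each treated library was above each untreated library.

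**Figure D2:**
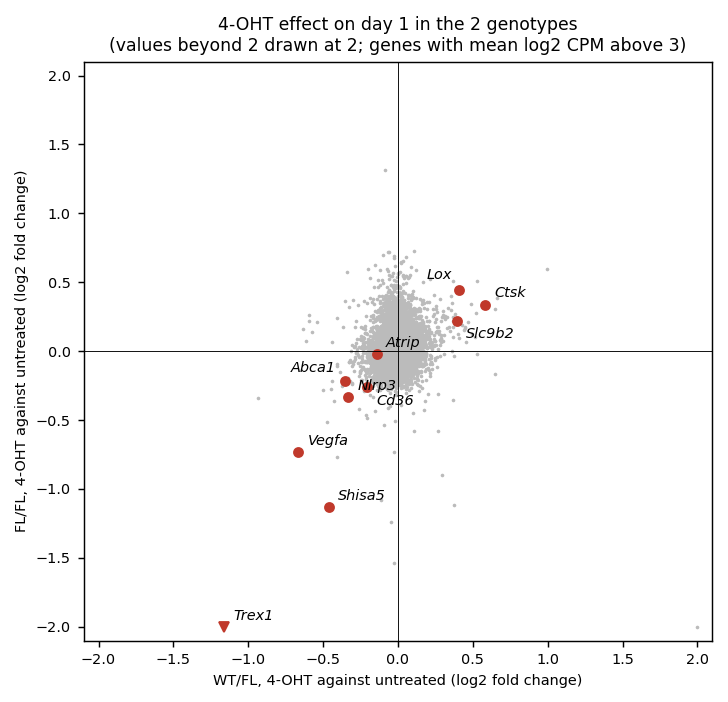
Log2 fold change of 4-OHT against untreated on day 1 in Trex1 WT/FL (horizontal) and Trex1 FL/FL BMDMs (vertical) for 9238 genes with a mean log2 CPM above 3 (grey). Named genes are in red, and values beyond 2 are drawn at 2, as for Trex1 (triangle). Most genes lie near 0 on both axes, Vegfa, Nlrp3, Cd36 and Abca1 are below 0 on both, and Lox, Ctsk and Slc9b2 are above 0 on both.

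The same genes were then read on days 2, 3 and 4, in libraries and untreated controls that the day 1 comparison did not use. The labels name no animal or culture, so these libraries may share their source with those of day 1 and need not be independent of them. In a fit of all 32 libraries, Vegfa fell in Trex1 WT/FL BMDMs, where its daily log2 fold changes were -2.00, -1.64 and -1.18 (adjusted p = 8.18e-06, 9.20e-06 and 0.000912), and in Trex1 FL/FL BMDMs with -1.73, -2.10 and -1.05. Nlrp3 fell in both as well, with -1.18, -1.43 and -1.21 in Trex1 WT/FL (adjusted p = 1.03e-09, 4.47e-12 and 2.51e-10) and -1.48, -1.89 and -1.33 in Trex1 FL/FL. Peli2 fell on days 2 and 4 in Trex1 WT/FL (-0.95 and -0.43), and Cd36 on days 3 and 4 (-0.75 and -0.64). Lox, at 0.38, 0.35 and 0.21 in Trex1 WT/FL, passed no test there (adjusted p = 1.00, 0.691 and 0.958), but rose in Trex1 FL/FL (0.78, 0.81 and 0.93, all at an adjusted p below 0.05). For Ctsk the direction did not last, with 0.39, 0.090 and 0.012 in Trex1 WT/FL and 0.62, 0.27 and -1.17 in Trex1 FL/FL. Of the 10 genes, 3, 3 and 4 were called in Trex1 WT/FL on days 2, 3 and 4, all in the day 1 direction, where 0.0983%, 0.537% and 0.472% of 15257 genes were called. In Trex1 FL/FL, 8, 7 and 8 were called, against 16.4%, 23.5% and 29.6% of all genes, and the day 1 direction was kept by 8, 7 and 6 of them. The values of Trex1 FL/FL on these days also hold the response to Trex1 loss. That response cannot be told apart there from a lasting effect of 4-OHT or Cre.

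**Figure D3:**
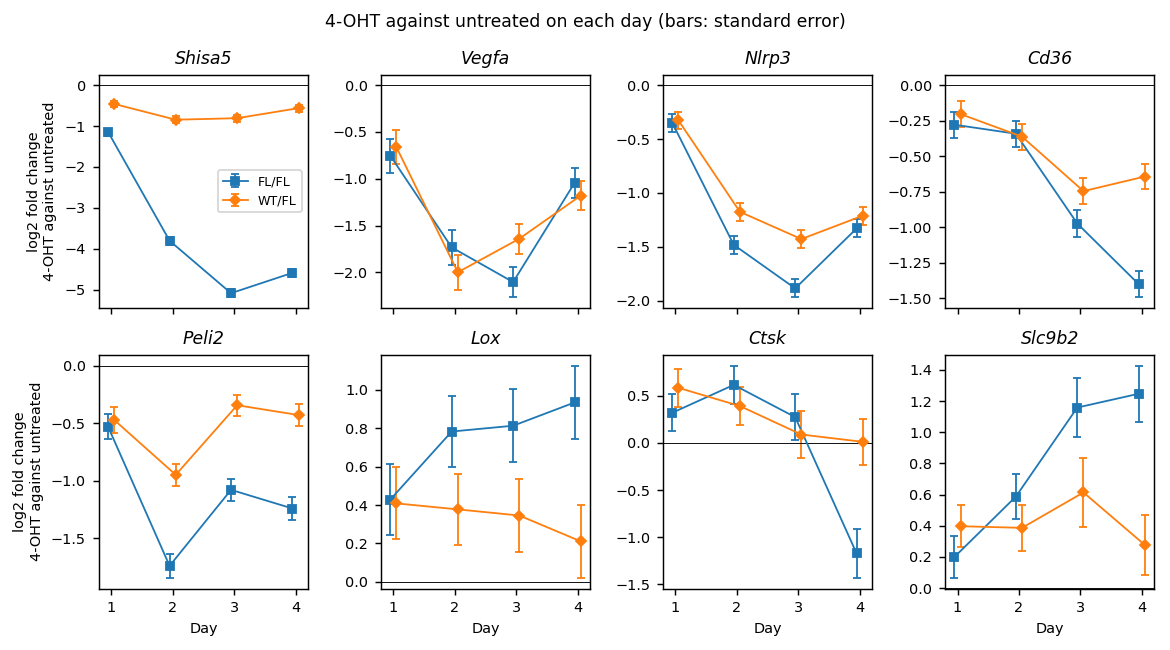
Log2 fold change of 4-OHT against untreated (vertical axes) on days 1 to 4 (horizontal axes) in Trex1 FL/FL (blue squares) and Trex1 WT/FL BMDMs (orange diamonds), from a fit of 32 libraries, with bars of 1 standard error. Vegfa and Nlrp3 were lower on each day in both genotypes, while Ctsk was higher on day 1 and lower on day 4 in Trex1 FL/FL.

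Genes of cholesterol synthesis and uptake were mostly lower in treated BMDMs. Of 24 tested members, 20 had a negative log2 fold change, with a median of -0.113 against 0.00147 over all genes. Within the genotypes the median was -0.0611 in Trex1 FL/FL BMDMs, with 5 of 24 genes higher, and -0.149 in Trex1 WT/FL, with 2 higher. In the combined fit, 13 genes were lower and 0 higher at an unadjusted p below 0.05, beside 1.73% and 1.89% of all genes. After adjustment 0 were called by edgeR or DESeq2. In 8 of the 24 genes the 4 treated libraries lay below the 4 untreated ones (1.45% of all genes). The changes were small. Hmgcs1, the HMG-CoA synthase at the start of the pathway, has the promoter with the TCACNCCAC match shown above. It was at 144 and 155 CPM in untreated and 133 and 136 CPM in treated Trex1 FL/FL BMDMs. In Trex1 WT/FL BMDMs it was at 161 and 144 CPM untreated and 124 and 132 CPM treated. No treated library reached an untreated one (log2 fold change -0.20 ± 0.049 (SE), unadjusted p = 0.00138, adjusted p = 0.753, edgeR). Cyp51, the lanosterol demethylase, was at 93.2 and 103 CPM untreated and 87.6 and 91.8 CPM treated in Trex1 FL/FL and at 104 and 96.5 CPM untreated and 86.7 and 84.8 CPM treated in Trex1 WT/FL (log2 fold change -0.18 ± 0.048 (SE)). Msmo1, which acts next to it on methylsterols, was at 119 and 131 CPM untreated and 108 and 116 CPM treated in Trex1 FL/FL and at 126 and 119 CPM untreated and 112 and 111 CPM treated in Trex1 WT/FL (log2 fold change -0.15 ± 0.045 (SE)). These 3 did not overlap between treatments either.

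Acat2, which makes acetoacetyl-CoA, had a log2 fold change of -0.20 ± 0.062 (SE), and its highest treated value, 30.0 CPM, exceeded its lowest untreated value, 29.5 CPM. Srebf2, the regulator of the pathway, stood at -0.046 ± 0.045 (SE) (unadjusted p = 0.328). In sum, the list was at 2001 and 1998 CPM in treated against 2077 and 2115 CPM in untreated Trex1 FL/FL BMDMs, and at 1908 and 1980 against 2233 and 2089 CPM in Trex1 WT/FL BMDMs. Both treated libraries were below both untreated ones in each genotype. Without the library that stood apart the median of the combined fit was -0.12, with 14 genes lower at an unadjusted p below 0.05. The median within Trex1 FL/FL was then -0.0539. On days 2 and 3 the medians were 0.0371 and 0.0157 in Trex1 FL/FL BMDMs and 0.0295 and -0.00862 in Trex1 WT/FL BMDMs, and on day 4 they were -0.24 and -0.0821, with 10 genes called lower in Trex1 FL/FL (15.9% of all genes) and 0 in Trex1 WT/FL (0.321%).

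The cholesterol exporters of the LXR list were lower as well. Abca1 was at 117 and 128 CPM in untreated and 110.5 and 101 CPM in treated Trex1 FL/FL BMDMs, and at 147 and 124 CPM untreated and 107 and 105 CPM treated in Trex1 WT/FL BMDMs. Abcg1 was at 58.4 and 63.7 CPM untreated and 51.2 and 54.9 CPM treated in the former and at 67.5 and 65.8 CPM untreated and 48.3 and 55.1 CPM treated in the latter. Neither overlapped between treatments, and the log2 fold changes were -0.29 ± 0.060 (SE) and -0.28 ± 0.059 (SE) (adjusted p = 0.533 and 0.530 in edgeR, 0.0249 for each in DESeq2). Smpdl3a, a phosphodiesterase under LXR control, stood at -0.26 ± 0.069 (SE), the desaturase Scd2 at -0.33 ± 0.12 (SE) and the ubiquitin ligase Mylip at -0.17 ± 0.067 (SE). These were the 5 of 14 list members with an unadjusted p below 0.05, all lower (1.73% of all genes). The list as a whole, however, had a median of -0.0109 that ranged from -0.0401 to 0.00334 over the alternatives. Of 14 genes of fatty acid synthesis, 12 were lower, with a median of -0.061. At an unadjusted p below 0.05, 2 were lower (1.73% of all genes), Fads2 (-0.17) and Scd2. Only 1 of the list was below 0.05 without the library that stood apart.

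**Figure D4:**
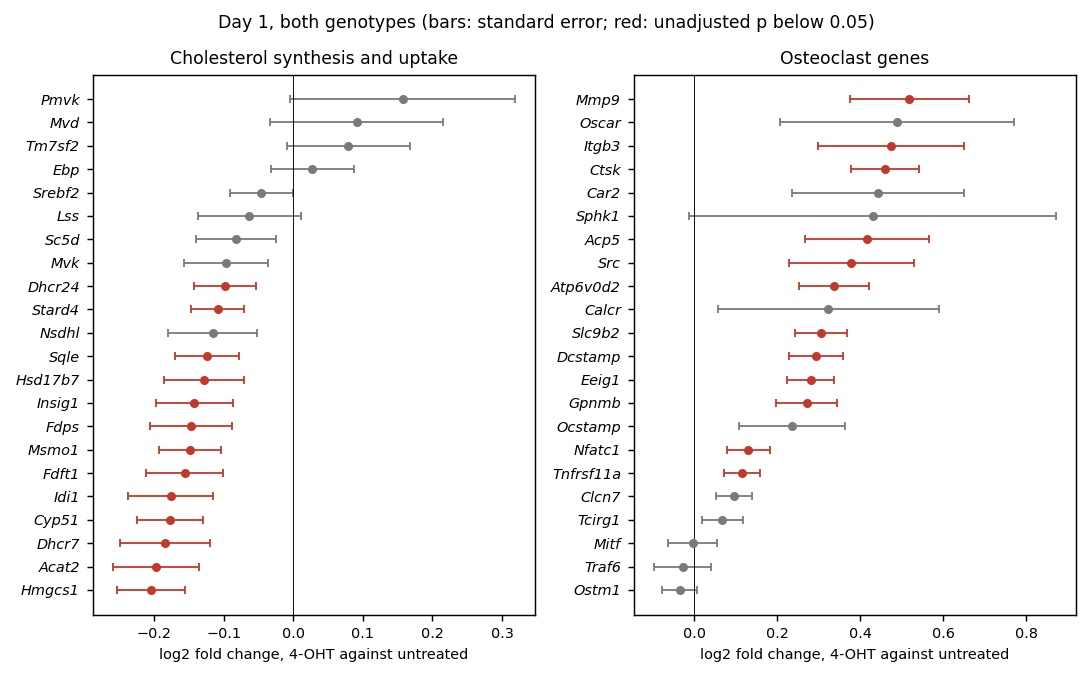
Log2 fold change of 4-OHT against untreated on day 1 in both genotypes (horizontal axes) for the tested genes of cholesterol synthesis and uptake and of an osteoclast list that was compiled after the values were seen, with bars of 1 standard error. Of the former list, 22 of 24 genes are drawn. Red marks an unadjusted p below 0.05, reached by 13 of 24 and 12 of 22 genes, and none passed adjustment over all genes in edgeR.

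Type I IFN-inducible genes are the genes that cGAS and STING switch on when cytosolic DNA is sensed. Of 69 tested on day 1, 0 were called in edgeR or DESeq2, and at an unadjusted p below 0.05, 1 was higher (Ccl5) and 5 were lower (1.89% and 1.73% of all genes). The median log2 fold change was -0.0936 in the combined fit, 0.0419 in Trex1 FL/FL with 44 of 69 genes higher, and -0.186 in Trex1 WT/FL with 2 of 69 higher. Without the library that stood apart, 9 genes were lower at an unadjusted p below 0.05 and 1 higher, 64 of 69 were below 0, and the medians were -0.109 in the combined fit and 0.0211 in Trex1 FL/FL. Summed over the list, treated Trex1 WT/FL BMDMs were at 3138 and 3024 CPM against 3550 and 3312 CPM untreated. Treated Trex1 FL/FL BMDMs were at 3578 and 3320 CPM against 3428 and 3355 CPM, so that these groups overlapped. The response differed between genotypes at an unadjusted interaction p below 0.05 in 9 genes, beside 1.83% of all genes, and none passed adjustment. Usp18, which shuts off IFN receptor signalling, had the lowest interaction p of the 9 (0.00538). It was at 13.3 and 12.3 CPM in untreated and 13.8 and 13.1 CPM in treated Trex1 FL/FL BMDMs, and at 14.2 and 13.2 CPM untreated and 10.3 and 7.59 CPM treated in Trex1 WT/FL BMDMs, where the treated libraries were the lower ones.

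The 5 genes that were lower in the combined fit, Rtp4, Oasl2, Oas1a, Sp100 and Trim30a, were below 0 in both genotypes. Rtp4, an IFN-induced chaperone of receptors, was at 35.9 and 36.3 CPM untreated and 34.2 and 30.8 CPM treated in Trex1 FL/FL and at 35.3 and 31.5 CPM untreated and 27.2 and 24.0 CPM treated in Trex1 WT/FL (log2 fold change -0.27 ± 0.071 (SE)). Oasl2, an antiviral protein of the OAS family, stood at -0.25, Oas1a, a synthase of the activator of RNase L, at -0.15 and the nuclear body protein Sp100 at -0.14. Ifit1 and Ifit3, which recognise foreign RNA, stood at 0.26 and 0.16 in Trex1 FL/FL and at -0.59 and -0.64 in Trex1 WT/FL. The labels give no animal or batch, and whether the lower values of the treated Trex1 WT/FL libraries belong to the treatment was not tested. On day 2 the list median was 1.25 in Trex1 FL/FL, with 69 of 71 genes called higher (10% of all genes), and 0.144 in Trex1 WT/FL with 0 genes called higher (0.00655%).

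Markers of cell division did not pass any test on day 1. Mki67, the proliferation antigen Ki-67, was at 758 and 849 CPM in untreated and 789 and 733 CPM in treated Trex1 FL/FL BMDMs, and at 839 and 752 CPM untreated and 850.1 and 758 CPM treated in Trex1 WT/FL BMDMs. Treated and untreated libraries overlapped (log2 fold change -0.032 ± 0.057 (SE), unadjusted p = 0.588, adjusted p = 0.978, edgeR). Of 42 genes of G2/M phase, 0 had an unadjusted p below 0.05 in either direction, with medians of -0.0673 in Trex1 FL/FL BMDMs and 0.0186 in Trex1 WT/FL BMDMs. Without the library that stood apart, the Trex1 FL/FL median was -0.0222 and the median of the combined fit went from -0.0231 to 0.00461. Cks2, a subunit of cyclin-dependent kinases, had the lowest p of them at -0.13 (unadjusted p = 0.0704). Of 48 genes of S phase, 1 was lower at an unadjusted p below 0.05, Dut (-0.13), which keeps uracil out of DNA, and the median was -0.0226.

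Cdkn1a, which encodes the cell cycle inhibitor p21, was at 308 and 272 CPM in untreated and 291 and 329.7 CPM in treated Trex1 FL/FL BMDMs. In Trex1 WT/FL BMDMs it was at 316 and 325 CPM untreated and 323 and 319 CPM treated, and the groups overlapped in both (log2 fold change 0.051 ± 0.052 (SE), unadjusted p = 0.343, adjusted p = 0.977, edgeR). Of 36 p53 target genes, 15 were higher and 21 lower, with a median of -0.00785 and 1 at an unadjusted p below 0.05, Plk2 (-0.18). Of 34 genes of DNA damage signalling and repair, 2 were higher at an unadjusted p below 0.05, Xrcc5 (0.48) and Trp53bp1 (0.13), and 1 was lower, Xrcc2 (-0.16). The shares over all genes were 1.89% higher and 1.73% lower. The medians of the p53 and repair lists were -0.00222 and 0.0144 without the library that stood apart, the latter against -0.00162 with it.

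Lists for other known actions of 4-OHT stood close to the median of all genes. The estrogen receptor gene Esr1 was low, at 6.11 and 6.51 CPM in untreated and 6.55 and 6.77 CPM in treated Trex1 FL/FL BMDMs, and at 6.01 and 7.31 CPM untreated and 6.41 and 5.56 CPM treated in Trex1 WT/FL BMDMs (log2 fold change -0.038 ± 0.11 (SE)). Of 11 estrogen response genes 0 had an unadjusted p below 0.05 and the median was 0.00343, and for 6 targets of the dioxin receptor AhR the median was 0.00303, with 1 lower, Nqo1 (-0.17). The median was -0.00656 for 21 NRF2 oxidative stress genes, 0.0149 for 21 ATF4 genes, -0.0233 for 22 genes of the unfolded protein response and 0.019 for 17 heat shock genes. In these 4 lists together 3 genes had an unadjusted p below 0.05, namely Nqo1, the ER degradation factor Edem1 (0.10) and the chaperone Dnajb4 (-0.15). Without the library that stood apart, the medians were -0.0217 for the estrogen response, -0.0196 for AhR, -0.0363 for NRF2 and 0.0352 for heat shock genes. Of 33 genes of glycolysis and hypoxia, 3 were lower and 0 higher at an unadjusted p below 0.05 (1.73% and 1.89% of all genes). The 3 were Vegfa, the glucose transporter Slc2a1 (-0.12) and the mitophagy receptor Bnip3 (-0.14), and the list median was -0.0144.

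Of 32 lysosome and V-ATPase genes, 4 were higher at an unadjusted p below 0.05 and 1 was lower (Lamp2, -0.086), beside 1.89% and 1.73% of all genes. Besides Ctsk, the higher ones were the proton pump subunits Atp6v0d2 (0.34) and Atp6v1b2 (0.13) and the glycoprotein Gpnmb (0.27). Atp6v0d2 was at 115 and 99.0 CPM in untreated and 133 and 115 CPM in treated Trex1 FL/FL BMDMs, which overlapped, and at 81.0 and 93.8 CPM untreated and 117 and 125 CPM treated in Trex1 WT/FL BMDMs, which did not. Gpnmb was at 632 and 699 CPM untreated and 691 and 887 CPM treated in the former and at 714 and 683 CPM untreated and 879.5 and 836 CPM treated in the latter. Among 29 immediate early genes (median 0.0574, or 0.00896 without the library that stood apart), the AP-1 subunit Fosl2 was higher at 0.36 (unadjusted p = 0.00514, adjusted p = 0.0249 in DESeq2), with 162 and 119 CPM untreated and 190.4 and 167 CPM treated in Trex1 FL/FL BMDMs and 134 and 129 CPM untreated and 174 and 165 CPM treated in Trex1 WT/FL. NF-κB and TNF-inducible genes had a median of 0.0207 over 35 genes, with 1 higher, Csf1 (0.32), the M-CSF gene itself. MHC class II genes (median 0.0993 over 11), macrophage markers (0.00674 over 16), alternative activation genes (-0.0236 over 17) and nuclear respiratory chain genes (0.00842 over 24) held 0 genes at an unadjusted p below 0.05, and the 13 mitochondrially encoded genes (-0.0741) held 1, mt-Nd6 (-0.23). These medians moved without the library that stood apart, to 0.00305 for MHC class II genes, -0.017 for macrophage markers, 0.0208 for the nuclear respiratory chain and 0.0192 for mitochondrially encoded genes, of which 10 of 13 were then higher. Alternative activation genes then held 2 at an unadjusted p below 0.05, both lower, of which 1, the transglutaminase Tgm2, was called. Lists of other cell types, of 1 to 13 tested genes, also held 0. Their medians were 0.0798 for neutrophils and granulocyte progenitors (13 genes), -0.0864 for dendritic cells (6), 0.305 for fibroblasts and stroma (5), 0.208 for mast cells and basophils (3), 0.211 for erythroid cells and megakaryocytes (1) and -0.324 for lymphocytes (1). Without the library that stood apart they were 0.183, -0.00843, 0.126, 0.334, 0.101 and -1.11 in the same order, over 13, 7, 7, 3, 1 and 2 genes.

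**Figure D5:**
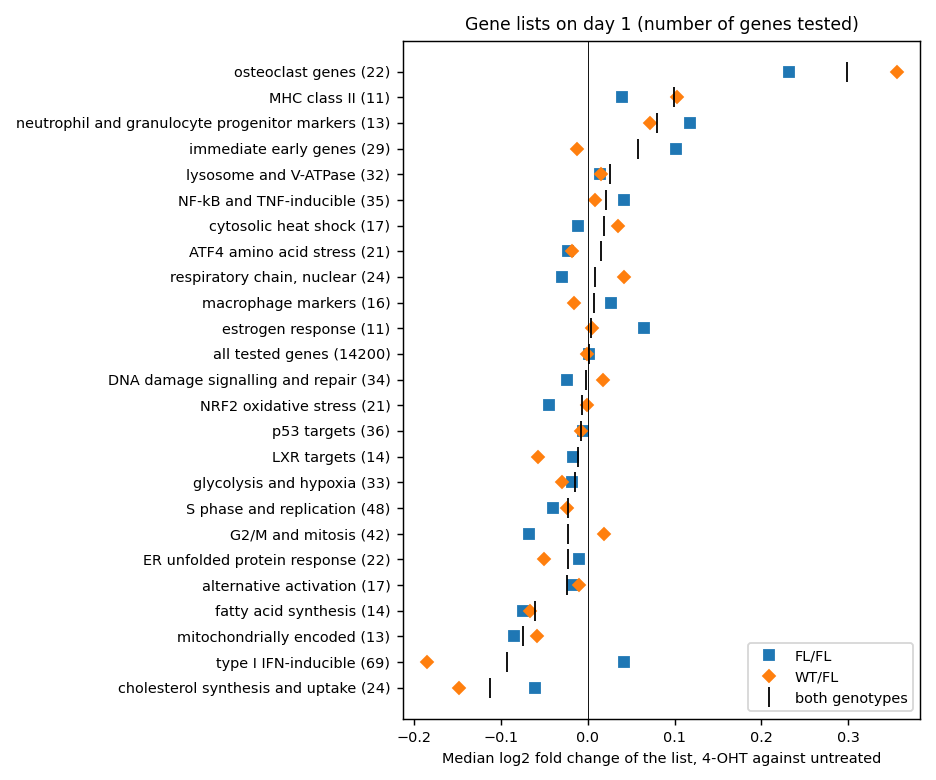
Median log2 fold change of 4-OHT against untreated on day 1 (horizontal axis) for lists with at least 10 tested genes, in Trex1 FL/FL (squares), Trex1 WT/FL (diamonds) and both genotypes (bars). Most medians lie within 0.1 of 0, the cholesterol list is lower in both genotypes, the type I IFN list is at -0.186 in Trex1 WT/FL and 0.0419 in Trex1 FL/FL, and the osteoclast list is higher in both.

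After Trex1, the genes with the lowest interaction p besides Shisa5 were Gm15387, Gm49325, Igflr1 and Gm9762, and none passed adjustment. Gm15387 was at 53.8 and 54.7 CPM in untreated and 43.6 and 41.2 CPM in treated Trex1 FL/FL BMDMs, and at 33.9 and 38.7 CPM untreated and 44.7 and 48.8 CPM treated in Trex1 WT/FL BMDMs, opposite in direction. Gm9762 was at 13.5 and 14.2 CPM untreated and 9.68 and 8.87 CPM treated in Trex1 FL/FL and at 8.69 and 10.6 CPM untreated and 12.4 and 10.8 CPM treated in Trex1 WT/FL. Igflr1, a receptor of the TNF receptor family, had 0 counts in both untreated Trex1 FL/FL and both treated Trex1 WT/FL libraries and at most 0.948 CPM in the others. All 4 are uncertain, since 94% to 100% of their 31-base words occur in transcripts of other genes. Total counts also differed between treatments in opposite directions in the genotypes, and their part in these differences was not tested.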

How the data were processed

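RNA of BMDMs was sequenced on an Illumina NovaSeq. The authors demultiplexed the reads with JE, ran FastQC, quantified transcripts with Salmon and summed them per gene with tximport, on GRCm39. The deposited values are estimated counts, not normalized, and all were whole numbers, so rounding changed none. The annotation release is not given in the sources used here. GENCODE vM39 gave names for 51048 of 54281 identifiers, matched without version. The others held 0.32% of the counts.

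Genes were kept with edgeR's filter (minimum count 10), scaled with TMM factors and tested by the robust quasi-likelihood method of edgeR 4.0.16 (R 4.3.3). The main model had genotype and treatment as terms (5 residual degrees of freedom, common biological coefficient of variation 0.1), and a model with 4 group means (4 degrees of freedom) gave the effects within genotypes and their difference. A gene was called where its p, adjusted by Benjamini-Hochberg over all tested genes, was below 0.05. Levels are TMM-normalised CPM, which do not correct for gene length and were compared within a gene only. The script was tested on simulated data. Days 2 to 4 were taken from a fit of all 32 libraries (16 degrees of freedom). The alternatives were RLE factors, other filters, DESeq2 1.42.0, non-robust estimation, other models and thresholds, and leaving out each library.

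Named genes were Trex1, Atrip, Esr1, Mki67 and Cdkn1a, the 10 largest called changes in each direction or, with fewer than 5 called, the 5 of lowest p, up to 4 genes of lowest p per list and the 5 of lowest interaction p after Trex1. The members and lists were chosen with earlier results of these data known. Genes outside this rule (Srebf2, Mylip, Usp18, Ifit1, Ifit3, Trim30a, Ccl5, Lamp2, Tgm2 and the neighbours of Trex1) were chosen after their values were seen. The values of 2 genes of the cholesterol list are not reported here, though its counts and medians include them. Shared sequence was counted in 31-base words of GENCODE transcripts, on either strand. GC content was that of the longest transcript. Floors of 3 counts cover counting error only.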

Additional observations from a re-analysis of the deposited data

Results flagged for a closer look

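The response of Trex1 to 4-OHT on day 1 differed between the genotypes by a test of the difference itself (edgeR interaction, adjusted p = 9.46e-07, 2 libraries per group). In Trex1 WT/FL only 1 allele has loxP sites, so a larger fall in Trex1 FL/FL was set by the design. The test therefore checks the labels and supports nothing further. Both treated Trex1 FL/FL libraries held 0 counts, against 35.1 and 34.7 CPM untreated, while the treated Trex1 WT/FL libraries held 16.6 and 13.5 CPM against 35.5 and 31.8 CPM. The direction was the same in all 4 treated libraries. With 2 libraries per group, no group was large enough for a test of single libraries that lie far from the others.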

How the results depend on the processing

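The count of genes called for 4-OHT in both genotypes, 0 in edgeR, was 24 with DESeq2, 215 without a filter on low counts, 5 with all 32 libraries, 3 with 4 group means and 1 without the genotype term. It ranged from 0 to 12 when single libraries were left out, with 12 without the first and 8 without the second untreated Trex1 FL/FL library, and 1 without the second treated Trex1 WT/FL library. The interaction count, 1, was 20 without the filter, 8 with DESeq2, 2 with 32 libraries and 1 to 705 with libraries left out. The count in Trex1 FL/FL, 2, was 42 without the filter, 5 with DESeq2 and 1 to 1237 with libraries left out. These were 3 and 6 without the library that stood apart. Both upper ends came from leaving out the first untreated Trex1 FL/FL library, so that the library that stood apart was the only control of that genotype. In Trex1 WT/FL the count, 1, was 42 without the filter, 10 with DESeq2, 0 without robust estimation and 0 to 7 with libraries left out, with 7 and 5 without the first and the second untreated Trex1 FL/FL library and 0 without either untreated Trex1 WT/FL library. The cause was not tested. RLE factors and a minimum count of 50 left all 4 counts as they were. The 10 leading genes kept their direction in all 14 refits. Their treated and untreated libraries did not overlap, so leaving out a library could not reverse them, and the kept direction is no support. Vegfa lay between -0.76 and -0.64, Nlrp3 between -0.36 and -0.30, Lox between 0.38 and 0.46 and Ctsk between 0.42 and 0.56. The cholesterol median stayed between -0.129 and -0.0787 and the type I IFN median between -0.147 and -0.046. The list medians moved by less than the spread between libraries in 421 of 434 refits. No paired analysis was possible because the labels and columns carry no replicate number. The median standard error of a gene's log2 fold change was 0.0772, which limits the size of change detectable with 2 libraries per group.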

Other observations

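Because Ctsk, Slc9b2 and Eeig1 led the higher genes, a list of 22 genes known from osteoclasts was compiled after the values were seen, and its description carries no test. Of the 22 genes, 19 were higher in treated BMDMs on day 1, with a median log2 fold change of 0.299, against 0.00147 over all tested genes. At an unadjusted p below 0.05, 12 were higher (1.89% of all genes), and 5 were called by DESeq2, namely Ctsk, Slc9b2, Eeig1, Dcstamp and Atp6v0d2 (0.0845% of all genes higher in DESeq2). The list was chosen for its leading members, so its counts support nothing beyond them. In sum it was at 3160 and 3136 CPM in treated against 2874 and 2589 CPM in untreated Trex1 FL/FL BMDMs, and at 3157 and 3100 against 2595 and 2613 CPM in Trex1 WT/FL BMDMs. All 4 treated libraries were above all 4 untreated ones. Without the untreated Trex1 FL/FL library that stood apart, 20 of 22 genes were higher and the median was 0.257, while the median within Trex1 FL/FL went from 0.231 to 0.0699.

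Dcstamp, the membrane protein needed for the fusion of osteoclast precursors, was at 42.6 and 39.0 CPM in untreated and 46.3 and 44.3 CPM in treated Trex1 FL/FL BMDMs, and at 32.1 and 32.6 CPM untreated and 44.6 and 43.0 CPM treated in Trex1 WT/FL BMDMs (log2 fold change 0.29 ± 0.065 (SE)). Mmp9, a gelatinase, was at 15.5 and 10.3 CPM untreated and 19.0 and 14.6 CPM treated in Trex1 FL/FL and at 10.6 and 9.53 CPM untreated and 15.1 and 16.8 CPM treated in Trex1 WT/FL (log2 fold change 0.52 ± 0.14 (SE)), so that the former groups overlapped and the latter did not. Acp5, the acid phosphatase used to stain osteoclasts, was at 357 and 226 CPM untreated and 399 and 342 CPM treated in Trex1 FL/FL, with the lowest value in the library that stood apart, and at 244 and 264 CPM untreated and 364 and 350.0 CPM treated in Trex1 WT/FL. The master regulator Nfatc1 and the receptor RANK, encoded by Tnfrsf11a, differed less (0.13 and 0.12), and Mitf stood at -0.00349. None of these genes passed the edgeR test. On day 2 the list median was 0.4785 in Trex1 FL/FL, with 8 of 22 genes called higher (10% of all genes), and 0.194 in Trex1 WT/FL with 0 called higher (0.00655%). By day 4 the medians were -0.00678 and 0.0497.

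Other genes called by DESeq2 on day 1 included Creb5, a transcription factor of the CREB family, at 29.7 and 33.4 CPM in untreated and 25.5 and 25.1 CPM in treated Trex1 FL/FL BMDMs and 30.5 and 34.7 CPM untreated and 25.0 and 26.6 CPM treated in Trex1 WT/FL BMDMs (log2 fold change -0.33 ± 0.061 (SE)). Ccr2, the receptor that brings monocytes to inflamed tissue, was at 96.0 and 94.3 CPM untreated and 77.6 and 70.6 CPM treated in Trex1 FL/FL and at 115 and 87.6 CPM untreated and 87.3 and 64.1 CPM treated in Trex1 WT/FL (-0.39). Saa3, an acute phase protein made by macrophages, was at 18.4 and 15.2 CPM untreated and 20.1 and 27.6 CPM treated in Trex1 FL/FL and at 18.6 and 16.2 CPM untreated and 28.9 and 21.3 CPM treated in Trex1 WT/FL (0.52). These 3 did not overlap between treatments. They were chosen after their values were seen. Across genes, the 4-OHT effects in the 2 genotypes correlated with Pearson's r = -0.159 over 14200 genes. Over the 9238 genes with a mean log2 CPM above 3, r was -0.00264. Both values are a description in which genes are not independent replicates. Total counts differed between treatments in opposite directions in the genotypes, and their part in these correlations was not tested. The 13 mitochondrially encoded genes summed to 26200 to 36700 CPM in the 8 libraries, with the highest value in the library that stood apart.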
